A study of Mus musculus with 6 samples.

Results

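Genes for 8 membrane proteins that move calcium out of the cell were examined in MC3T3-E1 osteoblastic cells stimulated with ascorbic acid (AA): the sodium-calcium exchanger genes Slc8a1, Slc8a2 and Slc8a3, the potassium-dependent sodium-calcium exchanger gene Slc24a3, and the plasma membrane calcium pump genes Atp2b1, Atp2b2, Atp2b3 and Atp2b4. Every probe set that the platform annotation gives to one of these symbols was taken, which yielded 18 probe sets of the 45037 on the array that do not serve as controls, and 8 of the 18193 genes that at least 1 probe set names alone. The genes were chosen by a rule that used the comparison itself, the large rise of Slc8a3 after AA being known. For that reason their differences between AA and control cells are given as descriptions with their errors and without a p-value.

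The AA cells received 50 µg/ml AA for 5 days with medium changes every second day, and the control cells were cultured for the same 5 days without added AA. Both came from subclone 4 of MC3T3-E1, a mouse calvarial preosteoblast line, so a single clone stands for the osteoblast here, and each group had 3 arrays made from cells grown in 6-well plates. The study set out to find the Rab GTPases that rise during AA-induced differentiation, with RNA measured on Affymetrix whole-genome mouse arrays. The methods speak of experiments in triplicate, but do not say whether the 3 cultures of a group were started separately. Part of the spread between these samples may thus be technical. Each SD below measures that spread. Each SE draws more on the variances of other probe sets of like signal (6.18 prior degrees of freedom) than on these samples (2 residual).

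Calcium leaves a cell by 2 kinds of membrane protein. Exchangers of the Slc8 family use the sodium gradient to carry calcium outward, exchangers of the Slc24 family also need potassium, and pumps of the Atp2b family spend ATP. Both kinds have been described in osteoblasts, which lay down a calcium-rich matrix, and Slc8a3 is otherwise known mainly from brain and skeletal muscle.

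The deposited signal is a MAS5 intensity in arbitrary units, scaled so that the trimmed mean of each array is 150, and the array medians lay between 16.2 and 16.9 in AA cells and between 14.9 and 17.7 in control cells. Signals of different probe sets depend on their oligonucleotides and are not compared with each other as levels. Of the 18 probe sets, 4 exceeded the array median on all 6 arrays (Slc24a3 and the 3 of Atp2b1), 5 on some arrays and 9 on none. These 9 belonged to Slc8a1, Slc8a2, Atp2b2 and Atp2b3.

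The sequence before the start of each gene was read from RefSeq's promoter table (GRCm38.p6), which held 11 starts for 7 of the 8 genes. The first listed start is shown for the 3 genes with a probe set above the array median on at least 5 of the 6 arrays, Slc8a3 at chr12:81333181-81333430 (minus strand), Slc24a3 at chr2:145167525-145167774 (plus strand) and Atp2b1 at chr10:98914392-98914641 (plus strand). Each run holds the 250 bases before the start, and capitals mark matches to the motifs searched.
Slc8a3: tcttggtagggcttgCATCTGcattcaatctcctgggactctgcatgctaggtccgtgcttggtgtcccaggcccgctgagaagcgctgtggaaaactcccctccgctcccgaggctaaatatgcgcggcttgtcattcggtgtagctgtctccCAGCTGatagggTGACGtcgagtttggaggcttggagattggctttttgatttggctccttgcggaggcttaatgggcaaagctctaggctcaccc
Slc24a3: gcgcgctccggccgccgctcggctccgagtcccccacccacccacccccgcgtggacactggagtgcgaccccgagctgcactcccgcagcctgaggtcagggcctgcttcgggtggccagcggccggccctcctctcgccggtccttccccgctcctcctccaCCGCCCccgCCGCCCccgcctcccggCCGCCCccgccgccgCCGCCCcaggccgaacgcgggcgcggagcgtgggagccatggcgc
Atp2b1: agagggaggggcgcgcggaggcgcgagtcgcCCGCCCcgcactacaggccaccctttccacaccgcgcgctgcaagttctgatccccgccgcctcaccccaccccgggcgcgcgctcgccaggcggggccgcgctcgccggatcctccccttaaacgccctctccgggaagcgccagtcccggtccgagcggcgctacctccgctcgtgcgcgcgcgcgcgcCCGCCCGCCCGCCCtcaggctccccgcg
The motifs, searched on both strands, were the RUNX site TGTGGT, the GC box GGGCGG, the TATA box TATAAA, the E-box CANNTG, the AP-1 site TGANTCA and the cyclic AMP response-element core TGACG. The Slc8a3 window was 56.0% G and C and held 2 E-boxes and 1 cyclic AMP response-element core, without a GC box. The Slc24a3 window was 80.8% G and C and held 4 GC boxes, and the Atp2b1 window was 78.4% G and C and also held 4, of which 3 overlap one another. The median over all 32851 promoters of the table was 52.4%. Of all those promoters 66.2% held an E-box, 17.8% the cyclic AMP response-element core and 32.7% a GC box. No RUNX site, TATA box or AP-1 site was found in the 11 windows, and these motifs occur in 14.0%, 12.4% and 6.75% of all promoters. A match describes letters and not a bound site.

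**Figure D1:**
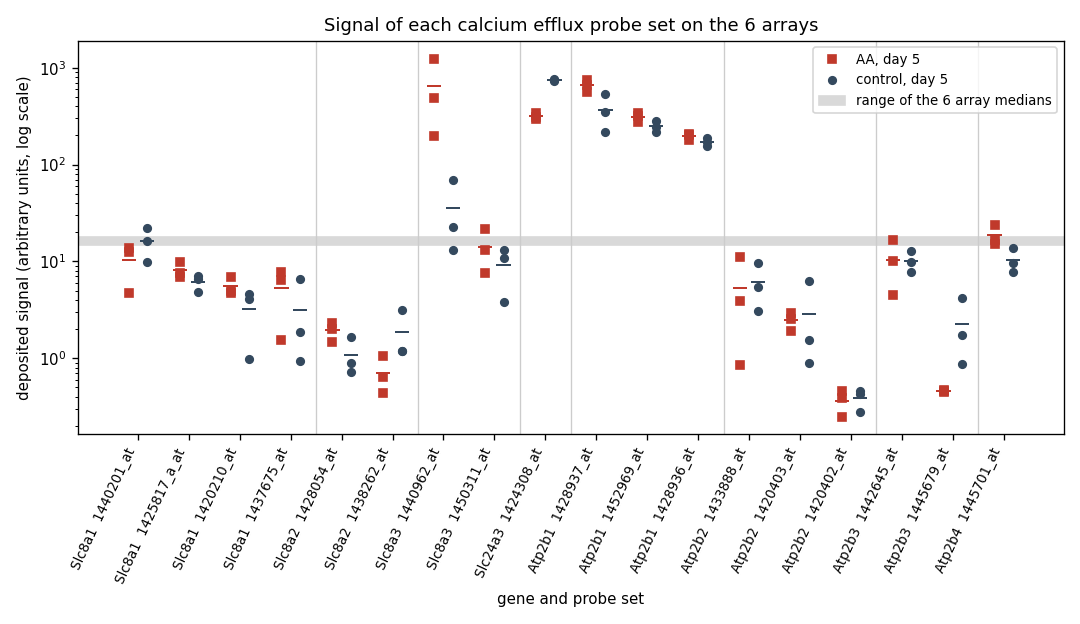
Deposited signal (log axis, arbitrary units) of the 18 probe sets on the 3 AA arrays (squares, left) and the 3 control arrays (circles, right), with a bar at each group's mean and a grey band over the range of the 6 array medians. Slc8a3 probe set 1440962_at lay between 195 and 1248 in AA cells and between 13.0 and 70.0 in control cells, Slc24a3 was lower in every AA array, and most probe sets of Slc8a1, Slc8a2, Atp2b2 and Atp2b3 lay below the band.

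Among the exchangers, Slc8a3 was higher and Slc24a3 lower in AA cells. Slc8a3 encodes sodium-calcium exchanger 3, and its probe set 1440962_at gave signals of 1248, 488 and 195 in AA cells (replicates 1, 2 and 3), against 70.0, 22.7 and 13.0 in control cells. Every AA array stood above every control array, and replicate 1 was the highest and replicate 3 the lowest within both groups. The means were 644 ± 543 in AA cells and 35.2 ± 30.5 in control cells (SD, n = 3 each). The fitted log2 difference was 4.17 ± 0.16 (SE), an 18.0-fold higher level. Its size depends on the low control signals, of which replicate 3 lay below the array median, and was 2.77 after 50 was added to every signal. Within AA cells the highest array was 6.39 times the lowest, and within control cells 5.38 times. The AA to control ratio of same-numbered arrays stayed at 17.8, 21.5 and 15.0. Without the replicate number in the fit the SE was 0.69, while the difference kept its value.

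The other Slc8a3 probe set did not show a difference of that size. Probe set 1450311_at, whose target is a RefSeq mRNA where that of 1440962_at is an expressed sequence tag, read 21.4, 13.0 and 7.61 in AA cells and 13.0, 10.9 and 3.79 in control cells. The groups overlapped, the AA array was higher in 3 of 3 same-numbered pairs, and the log2 difference was 0.61 ± 0.41 (SE). Replicate 1 was again the highest and replicate 3 the lowest of each group. Only 1 of its 6 signals exceeded the median of its array. Which transcript forms the 2 probe sets read was not tested.

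Slc24a3 encodes a potassium-dependent exchanger that is read by 1 probe set, 1424308_at. It gave 299, 342 and 308 in AA cells, against 735, 759 and 748 in control cells. The groups were far apart and tight, with means of 316 ± 22.8 in AA cells and 748 ± 11.9 in control cells (SD, n = 3 each). The log2 difference was -1.22 ± 0.08 (SE), and the same-numbered ratios of AA to control were 0.406, 0.451 and 0.412. Slc8a3 varied several-fold between replicates of a group, whereas the highest Slc24a3 signal was 1.14 times the lowest in AA cells and 1.03 times in control cells.

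Slc8a1, the exchanger best known from heart muscle, had 4 probe sets with signals between 0.941 and 22.3. Their log2 differences were mixed in sign. Probe set 1440201_at read 4.66, 12.5 and 13.7 in AA cells and 9.81, 16.2 and 22.3 in control cells (-0.78 ± 0.39, SE), overlapping groups although AA was lower in all 3 pairs. Probe set 1420210_at read 6.85, 4.77 and 4.93 in AA cells and 4.12, 0.981 and 4.65 in control cells, with every AA array above every control array (1.00 ± 0.72, SE). Probe sets 1425817_a_at (0.33 ± 0.50) and 1437675_at (0.85 ± 0.83) overlapped. All 4 differences lay within 2 SE of 0.

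Slc8a2, an exchanger known mainly from neurons, gave signals of at most 3.18. Probe set 1438262_at read 0.436, 1.05 and 0.640 in AA cells and 3.18, 1.18 and 1.19 in control cells, with every AA array below every control array (-1.36 ± 0.96, SE). Probe set 1428054_at went the other way with overlapping groups (0.84 ± 0.85, SE). Both differences lay within 2 SE of 0.

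Of the pumps, Atp2b1 was the gene with signals well above the array medians, and its 3 probe sets were all higher in AA cells in all 3 same-numbered pairs. Atp2b1 encodes the plasma membrane pump found in nearly every cell type. Its brightest probe set 1428937_at read 664, 560 and 751 in AA cells, against 534, 348 and 218 in control cells. The groups did not overlap, and the control arrays spread 2.45-fold where the AA arrays spread 1.34-fold. The log2 difference was 0.96 ± 0.23 (SE). Probe set 1452969_at read 341, 276 and 321 in AA cells and 284, 244 and 217 in control cells (0.37 ± 0.10, SE). Probe set 1428936_at read 204, 206 and 178 in AA cells and 190, 154 and 173 in control cells (0.21 ± 0.12, SE). The groups overlapped in these last 2, and the 3 probe sets thus gave 3 sizes of difference with 1 sign. The difference of 1428936_at lay within 2 SE of 0, and was 0.13 ± 0.14 (SE) with median centring. AA was higher in all 3 pairs in 8 of the 18 exchanger and pump probe sets. How often that holds over all probe sets was not tested.

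Control replicate 3, the lowest array of Atp2b1 1428937_at, also had the highest ratios of 3′ to 5′ control probe sets. For Gapdh the ratio was 0.791 to 0.799 in AA cells and 0.807 to 0.920 in control cells, and for actin 1.35 to 1.45 in AA cells and 1.39 to 1.79 in control cells, the upper end of both control ranges being control replicate 3. Without that array and without the replicate number, a setting added after the data were seen, the log2 difference was 0.64 for Atp2b1 1428937_at, 3.67 for Slc8a3 1440962_at, 0.10 for Slc8a3 1450311_at and -1.23 for Slc24a3. With replicate 3 of both groups left out instead, it was 0.54, 4.34, 0.45 and -1.20 in the same order. The part of RNA quality in these differences was not tested.

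The remaining pumps gave low signals. Atp2b4, a pump of many tissues, was read by 1 probe set, 1445701_at, with 15.2, 16.6 and 23.8 in AA cells and 9.70, 7.71 and 13.9 in control cells. Every AA array stood above every control array (0.79 ± 0.36, SE), but 1 of the 6 signals exceeded its array's median. Atp2b2, a pump known from neurons and hair cells, had 3 probe sets between 0.249 and 11.2, and all 3 overlapped between groups (-0.78 ± 0.68, 0.20 ± 0.81 and -0.19 ± 0.96, SE). Atp2b3, also known from brain, had 1 overlapping probe set, 1442645_at (-0.19 ± 0.44, SE). Its other probe set, 1445679_at, read 0.452, 0.470 and 0.462 in AA cells and 0.867, 1.74 and 4.20 in control cells (-2.06 ± 0.92, SE), a large ratio between signals near the bottom of the scale.

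**Figure D2:**
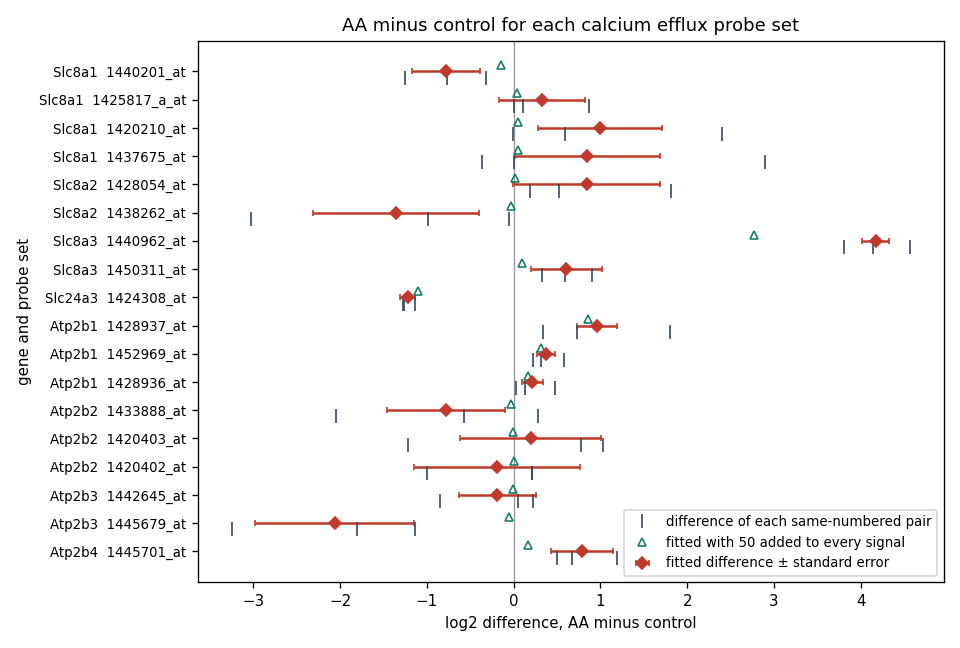
Fitted log2 difference of AA minus control with its standard error (diamonds, bars), the differences of the 3 same-numbered pairs (ticks) and the difference after adding 50 to every signal (triangles) for each of the 18 probe sets. Slc8a3 1440962_at (4.17) and Slc24a3 (-1.22) stand away from 0 under both treatments of the signal, while the 9 dimmest probe sets move to between -0.05 and 0.05 once 50 is added.

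Over the 18 probe sets, 1 passed an adjusted p of 0.05 in the higher direction (Slc8a3 1440962_at), beside 2.71% of all 45037 probe sets, and 1 in the lower direction (Slc24a3), beside 2.50% of all. Since this comparison served to pick the genes, these counts only describe the selection. In 4 probe sets every AA signal lay above every control signal, which held for 11.0% of all probe sets, and in 3 every AA signal lay below, which held for 11.8% of all. The other 11 overlapped. The median log2 difference was 0.27 for the 18 probe sets and -0.01 for all probe sets. The 9 probe sets that exceeded no array median had log2 differences between -2.06 and 1.00 with SEs between 0.50 and 0.96. Adding 50 to every signal brought Slc8a3 1440962_at to 2.77, Slc24a3 to -1.11, Atp2b4 to 0.17 and Slc8a3 1450311_at to 0.10. Atp2b1 1428937_at did not pass the threshold in the fit reported here. It also did not pass with no replicate block, signals as deposited, a pseudocount of 50 or variances without the trend. Nor did it pass without replicate 2 of both groups or without control replicate 3. It passed with arrays centred on their medians and with dim probe sets left out before the fit. Leaving out replicate 1 or replicate 3 of both groups also made it pass. These calls, too, only describe the selection.

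The pattern of Slc8a3 1440962_at over the 6 arrays was set against 19698 other probe sets that name 1 gene each and lie above the median signal. The most alike by Pearson's r of log2 signals were those of Rnf7 (r = 0.9998), a subunit of ubiquitin ligases, Cryz (0.9988), a quinone reductase, Erlec1 (0.9987), a lectin of the endoplasmic reticulum, Smpd3 (0.9986), a sphingomyelinase needed for bone mineralization, and Car3 (0.9981), a carbonic anhydrase. The 6 arrays are shared by both genes of each pair, and the 2 groups alone already make r high, so no p is given. Likeness in r does not mean likeness in size. Car3 read 455, 241 and 169 in AA cells and 79.3, 45.1 and 31.3 in control cells, a log2 difference of 2.48 ± 0.12 (SE). Smpd3 differed by 1.05 ± 0.08, Erlec1 by 0.43 ± 0.07, Cryz by 0.31 ± 0.08 and Rnf7 by 0.30 ± 0.07 (SE). In all 5, replicate 1 was the highest and replicate 3 the lowest of each group, as in Slc8a3. The 5 were picked for their likeness over these same 6 arrays, so the shared order follows from the choice and is no separate result.

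**Figure D3:**
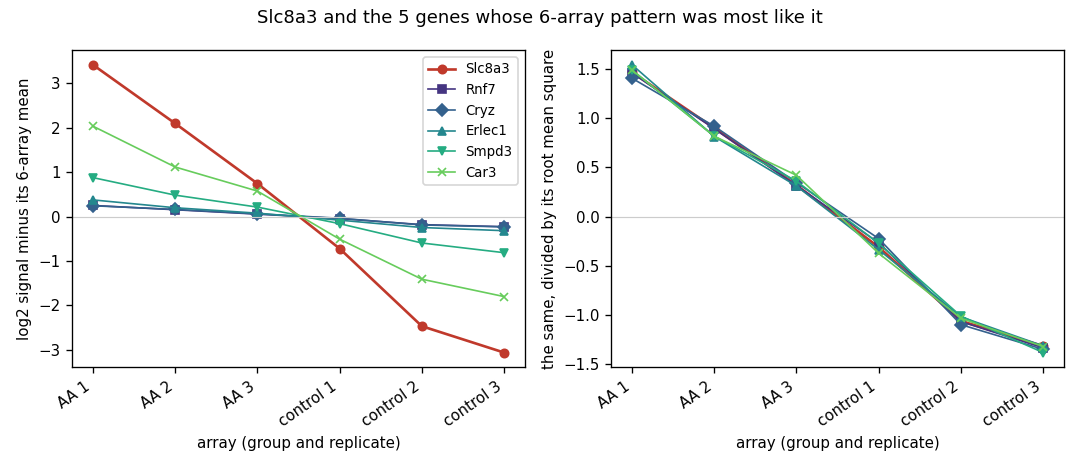
Log2 signal minus its 6-array mean (left) and the same divided by its root mean square (right) on the 3 AA and 3 control arrays for Slc8a3 1440962_at and the 5 most alike genes. The shapes coincide on the right, as the choice of genes by r ensures. On the left the log2 difference between AA and control ran from 4.17 for Slc8a3 and 2.48 for Car3 down to 0.30 for Rnf7.

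The cell type was checked against marker genes. Of 7 measured osteoblast markers 3 were higher in AA cells, Alpl (tissue-nonspecific alkaline phosphatase), Ibsp (bone sialoprotein) and Ifitm5 (an osteoblast membrane protein), and 0 were lower. The other 4 did not pass, with log2 differences of 0.29 ± 0.11 for Sp7, 1.58 ± 0.67 for Dmp1, 0.11 ± 0.06 for Col1a1 and -0.56 ± 0.51 for Phex (SE). Dmp1 read 73.8, 10.4 and 9.48 in AA cells and 5.14, 5.82 and 8.26 in control cells. Its signal exceeded the array median on 1 array, and its log2 difference was 0.50 without replicate 1 of both groups. For Col1a1 1 of its 2 probe sets passed. Ifitm5 read 3729, 2017 and 1704 in AA cells and 226, 87.7 and 61.1 in control cells (log2 difference 4.43 ± 0.14, SE; adjusted p = 2.1e-05, limma). It shared with Slc8a3 its highest value in replicate 1 and its lowest in replicate 3 of both groups. Ibsp and Phex had the same order, as did the macrophage and osteoclast marker Ctsk. How common that order is over all probe sets was not tested. Since Slc8a3 and several pumps are known from muscle and nerve, those markers were read as well. None of 9 skeletal muscle markers passed (0 at an unadjusted p below 0.05), and their summed signal was 90.3 to 108 in AA cells and 90.3 to 112 in control cells. Such a sum is set mostly by its brightest probe sets, here those of Des and Acta1. Acta1 was lower in every AA array (-0.48 ± 0.24, SE) and Ckm higher in every AA array (0.78 ± 0.49, SE), while the groups of the other muscle markers overlapped. None of 8 neuron markers passed (0 at an unadjusted p below 0.05), with sums of 61.0 to 70.2 in AA cells and 52.4 to 77.6 in control cells. Of these, 6 muscle and 5 neuron markers exceeded the array median on no array. Of 3 adipocyte markers 0 passed (0 unadjusted), with sums of 9.74 to 16.5 in AA cells and 9.75 to 15.3 in control cells.

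Markers of other skeletal cells moved in part. Of 6 chondrocyte markers 2 were higher in AA cells, Hapln1 and Col2a1, and the summed signal was 624 to 803 in AA cells and 389 to 491 in control cells. Sox9, a regulator of that lineage, read 172, 170 and 163 in AA cells and 179, 210 and 272 in control cells without passing (-0.33 ± 0.14, SE; adjusted p = 0.283, limma), and Comp had a log2 difference of -0.21 ± 0.39 (SE). Of 6 macrophage and osteoclast markers 2 were higher, Csf1r and Ctsk, with sums of 1743 to 2195 in AA cells and 1001 to 1184 in control cells. Ctsk alone made up 1634 to 2074 of the sums in AA cells and 951 to 1141 in control cells, and the other 4 markers (Ptprc, Cd68, Adgre1 and Acp5) exceeded the array median on no array. The part of such cells in the exchanger and pump signals was not tested, and in these bulk cultures fewer cells of a type cannot be told apart from less RNA per cell.

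The other genes of calcium handling were read from 8 lists with 97 genes, of which 82 were analysed here. The brightest probe set that names a gene alone stood for it. In AA cells 4 of the 82 were higher and 1 was lower, against 4.06% higher and 3.83% lower of all 18193 genes, and 32 exceeded the array median on no array. The share of the 82 genes called higher was thus near the background and slightly above it, and the share called lower was below it.

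The largest difference among the 5 that passed was in the sodium pump, whose gradient drives the exchangers. Fxyd5, a small regulatory subunit, read 289, 243 and 218 in AA cells and 98.1, 116 and 125 in control cells (log2 difference 1.16 ± 0.16, SE; adjusted p = 0.00531, limma). Atp1b3, a beta subunit, read 1766, 1620 and 1638 in AA cells and 1327, 1225 and 1378 in control cells, a smaller rise with groups apart (0.33 ± 0.07, SE; adjusted p = 0.0387, limma). The call of Atp1b3 was lost with median centring (limma adjusted p = 0.256), at a pseudocount of 50 (0.0552) and without replicate 1 (0.137) or replicate 2 (0.219), and over the alternatives its adjusted p ran between 0.0196 and 0.467. The other 7 subunits measured did not pass, among them Fxyd1, which encodes the heart and muscle regulator phospholemman (0.58 ± 0.15, SE; adjusted p = 0.0692, limma).

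Of 7 measured genes for proteins that bind the plasma membrane pumps, 1 passed. Slc9a3r2, a PDZ scaffold known to bind the tail of plasma membrane pumps, read 177, 193 and 196 in AA cells and 123, 135 and 150 in control cells (0.51 ± 0.11, SE; adjusted p = 0.0376, limma). It passed in 2 of its 6 probe sets. The call of Slc9a3r2 was lost with median centring (limma adjusted p = 0.0989), at a pseudocount of 50 (0.0695), with its probe sets averaged (0.0807) and without replicate 1 (0.104) or replicate 2 (0.225), and over the alternatives its adjusted p ran between 0.0268 and 0.414. The scaffolds Strn (-0.36 ± 0.09) and Cask (-0.39 ± 0.11, SE) had adjusted p-values of 0.0595 and 0.0911 by limma and did not pass.

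In the release channels of the endoplasmic reticulum, 1 of 6 genes rose. Itpr3, an inositol trisphosphate receptor, read 255, 177 and 155 in AA cells and 126, 119 and 117 in control cells (0.70 ± 0.14, SE; adjusted p = 0.0312, limma). Its call was lost at a pseudocount of 50 (limma adjusted p = 0.0809) and without replicate 1 (0.0953), replicate 2 (0.120) or control replicate 3 (0.131). Without the replicate number in the fit its adjusted p was 0.0570, within a range of 0.00921 to 0.417 over the alternatives run (limma). Itpr2 read 108, 106 and 108 in AA cells and 143, 129 and 143 in control cells, but did not pass (-0.33 ± 0.12, SE; adjusted p = 0.179, limma).

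Among 33 entry channel genes 0 rose and 1 fell. Cacna1a, the pore of P/Q-type voltage-gated channels, read 95.8, 71.8 and 74.5 in AA cells and 129, 173 and 161 in control cells (-0.92 ± 0.18, SE; adjusted p = 0.0240, limma), and 1 of its 4 probe sets passed. The call of Cacna1a was lost with its probe sets averaged (limma adjusted p = 0.342), at a pseudocount of 50 (0.0659) and without replicate 2 (0.145), and over the alternatives its adjusted p ran between 0.00236 and 0.410. The store-operated channel gene Orai1 and its sensor Stim1 had log2 differences of 0.13 ± 0.15 and -0.29 ± 0.19 (SE).

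In the other 4 lists 0 genes passed by limma with their brightest probe set, and 1 gene in each had an unadjusted p below 0.05. Of the 5 probe sets of the calcium pump gene Atp2c1, 1 passed, but not the brightest. By brightest probe set the nearest was Atp2a2, the main calcium pump of the endoplasmic reticulum. It read 1569, 1652 and 1622 in AA cells and 2050, 1826 and 1919 in control cells. Its log2 difference was -0.30 ± 0.07 (SE; adjusted p = 0.0615, and 0.0378 without the replicate number, within a range of 0.0293 to 0.495 over the alternatives run, limma). Of the 4 other exchangers measured, the mitochondrial exchanger Slc8b1 read 125, 97.6 and 91.7 in AA cells and 84.1, 81.9 and 82.3 in control cells (0.34 ± 0.14, SE; adjusted p = 0.259, limma). The 8 mitochondrial uptake genes lay between -0.20 and 0.28. In the list of cytosolic buffers the calcium-sensing receptor gene Casr had a log2 difference of -0.79 ± 0.33 (SE; adjusted p = 0.255, limma) at signals of 7.66 to 14.7 in AA cells and 12.6 to 26.6 in control cells.

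**Figure D4:**
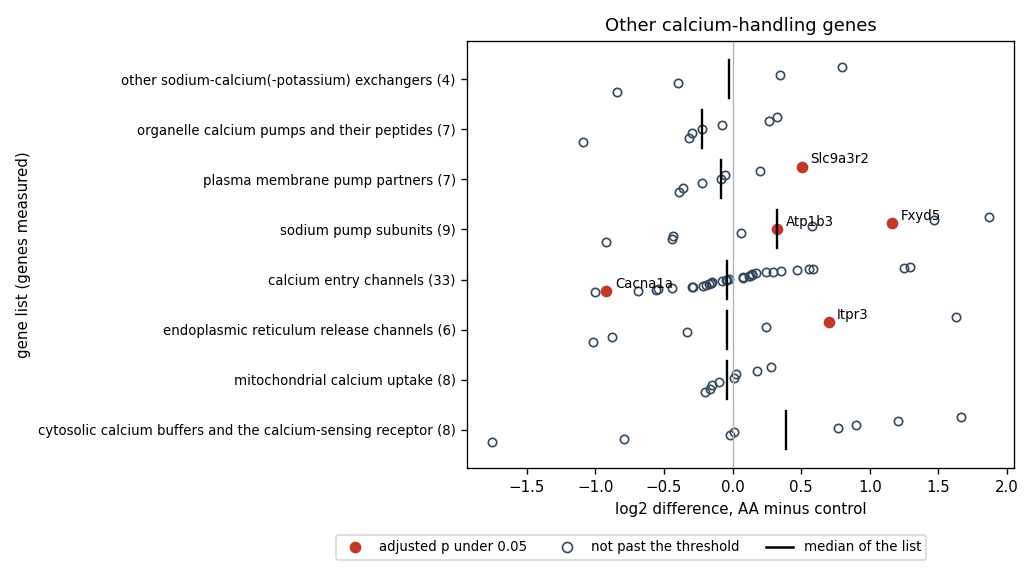
Log2 difference of AA minus control for the 82 other calcium-handling genes in 8 lists, 1 point per gene, with filled points for an adjusted p under 0.05 and a bar at each list's median. The 5 filled points are Fxyd5 (1.16), Itpr3 (0.70), Slc9a3r2 (0.51), Atp1b3 (0.33) and Cacna1a (-0.92).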

How the data were processed

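RNA of 3 AA-treated and 3 control MC3T3-E1 samples was measured on 6 arrays, grouped by the labels' titles. The authors deposited linear intensity values, made with MAS5 (no version given) and scaled to a 2% trimmed mean of 150, without detection calls. The quantile normalization and GC-RMA of the methods are not in these values. The number of arrays limits the precision.

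After removal of 64 control probe sets, the log2 signals of the other 45037 were brought to common quantiles. limma 3.58.1 (R 4.3.3) was fitted with group and replicate number, since the methods name paired tests, and variances that follow the mean, with 2 residual and 6.18 prior degrees of freedom. Benjamini-Hochberg adjustment ran over the whole array and 0.05 was the threshold. Tables were handled with pandas 2.3.3 (Python 3.11.15). The fit was also run on simulated data with independent noise at the fitted variances. Only probe sets above the median signal were changed there, so that run does not cover dim probe sets or shared replicate effects.

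The exchanger and pump genes and the gene lists were chosen with earlier results of these data known. All their probe sets are given. Genes named from the lists are those that passed, plus some that did not, picked after their values were seen. Genes named for likeness are the 5 with the highest r. Names come from GEO's platform annotation, and some listed genes are not reported here. Apart from the promoter table, the files name no genome build. Alternatives were a fit with no replicate block, unnormalized signals, centring on array medians, 50 added as a pseudocount, a filter at the median signal, variances without the trend, averaged probe sets per gene and leaving out replicates.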

Additional observations from a re-analysis of the deposited data

How the results depend on the processing

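Of the 18 exchanger and pump probe sets 2 passed. The count was 2 with no replicate block, with the signals as deposited and at a pseudocount of 50, 3 with median centring and with the filter at the median signal, and 2 to 3 when replicates were left out. Of 126 recomputed log2 differences of these probe sets that could move, 8 moved by more than 1 SD of the pairs (6 of them at the pseudocount of 50). The sign changed in 7, all from 4 uncalled probe sets of Slc8a1, Atp2b2 and Atp2b3. Leaving out a replicate of both groups can hardly shift a mean of 3 pairs by 1 SD of those pairs. The count of 8 therefore does not measure stability. Of the 82 other calcium-handling genes 5 passed, and also 5 with no replicate block, which gained Atp2a2 and lost Itpr3. That count was 1 at the pseudocount of 50 (Fxyd5), 9 with the filter, 3 with each gene's probe sets averaged, and between 1 and 6 when replicates were left out, with 2 without replicate 1 and 1 without replicate 2. With limma variances that did not follow the mean, 0 probe sets of the exchangers and pumps, 0 of the other genes and 0 of all 45037 passed, with 6 and 9 of the first 2 at an unadjusted p below 0.05, so each call reported here was made with the variance trend. The pairing by replicate number was weak: deviations of same-numbered arrays from their group means correlated at 0.017, 0.004 and 0.010 over all probe sets and at 0.182, 0.025 and 0.092 over those above the median signal, and 2 of 3 AA arrays matched their own number best. Signals near or below the array median limit what the 9 dimmest probe sets can show.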
